A study of Rattus norvegicus with 10 samples.

Results

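The muscle splicing regulators described here are 10 genes whose products decide, in muscle and heart, which exons of a pre-mRNA are kept. They are *Rbm20*, *Rbm24*, *Rbfox1*, *Rbfox2*, *Celf1*, *Celf2*, *Mbnl1*, *Mbnl2*, *Ptbp1* and *Srpk3*, chosen by name, and all 10 are among the 18025 genes listed in the deposited expression table. Hearts of wild-type Sprague-Dawley rat fetuses at embryonic day 19.5 were sequenced as mRNA, with 5 libraries in the control (CON) group and 5 in the hyperglycemia (HG) group. All dams were 3 months old and had been mated with normoglycemic males. The HG dams received streptozotocin, a toxin of the insulin-producing beta cells of the pancreas, in citric acid buffer on 3 days, and the CON dams received the buffer alone. The order of injection and mating is described differently in different places of the study. The study's text also speaks of isolated cardiomyocytes for these data, whereas the libraries are labelled as heart tissue, and of pooled RNA, whereas the libraries of a group differ from each other. Neither the sex of the fetuses nor the dam or litter of each library is given, so that p-values measure the spread between these libraries, which may include littermates.

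Alternative splicing joins different sets of exons of one gene into different mRNAs, and around birth the heart exchanges fetal forms of many sarcomere and calcium-handling proteins for adult ones. RBM20, RBM24, the RBFOX and MBNL proteins and the CELF proteins bind short motifs in or beside an exon, and promote or block its use depending on where they bind. CELF and MBNL proteins act in opposite directions on many developmental exons, PTBP1 represses exons that are used in differentiated muscle and neurons, and SRPK3 is a muscle kinase that phosphorylates the SR family of splicing factors. The values below are mRNA levels of whole genes, so that they do not show which exons were used.

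Between 16672876 and 19109844 reads per library lay on listed genes, and 16041 to 16313 genes were above 0. Levels are FPKM, reads scaled for the length of the gene and for the size of the library. Comparisons between genes depend on the length assigned to each gene, such as 23945 bases for *Celf2* and 8939 for *Celf1*. Differences are log2 fold changes of FPKM + 0.1, HG minus CON, and a gene was called at a Benjamini-Hochberg adjusted p under 0.05 in limma over the 14542 genes whose mean reached 0.1 FPKM. Of all genes tested, 40.1% were called in either direction, 28.4% higher and 11.8% lower in HG. All genes together had a median log2 fold change of 0.09. Dividing the libraries by median-of-ratios factors, a scaling that sets the typical gene equal between them, brought this median to 0.01. With that scaling 15.6% of genes were higher and 17.5% lower.

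Among the 9 regulators that passed the filter, 3 were higher in HG (*Ptbp1*, *Celf1* and *Rbfox2*), 1 was lower (*Rbm20*), and 5 were not called (*Rbm24*, *Celf2*, *Mbnl1*, *Mbnl2* and *Srpk3*). *Rbfox1* fell under the filter. A share of 4 in 9 is near the 40.1% called among all genes, so the number of calls does not set these regulators apart. Their median log2 fold change was 0.08, close to the 0.09 of all genes, and -0.01 with median-of-ratios factors. None passed an absolute log2 fold change of 1 together with the adjusted p, which 1.94% of all genes did.

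**Figure D1:**
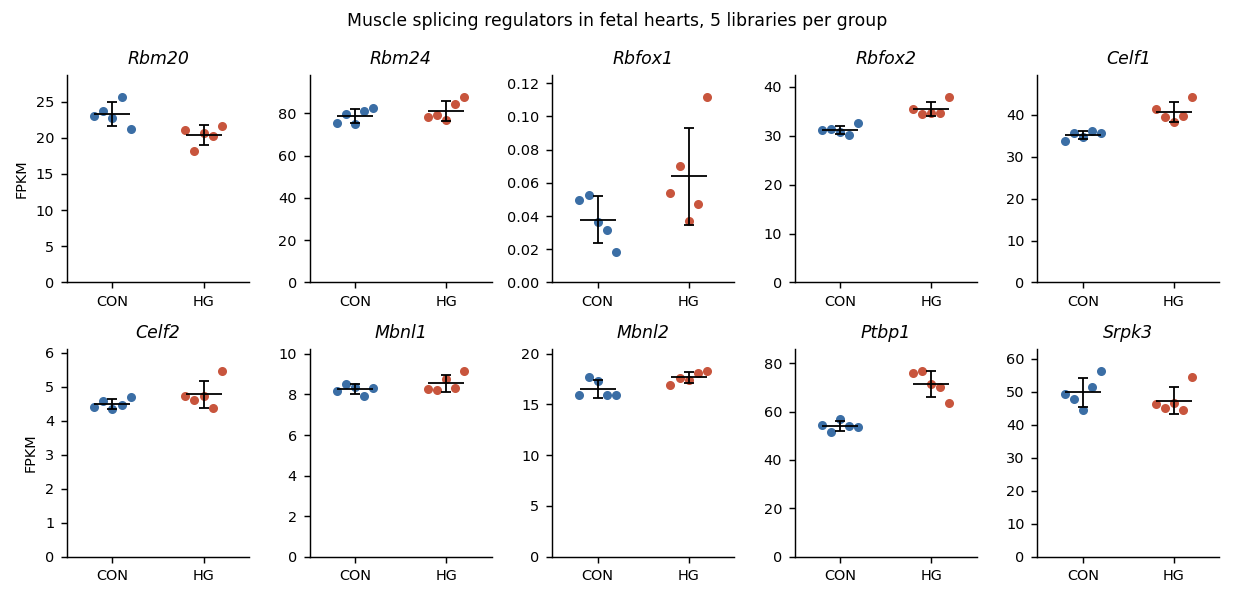
FPKM of the 10 muscle splicing regulators in each library (y axis, starting at 0 and scaled per gene), with CON in blue and HG in red. Horizontal lines are group means and bars are SD (n = 5 libraries). The groups do not overlap for *Ptbp1*, *Celf1* and *Rbfox2*, and a single CON library of *Rbm20* (21.2 FPKM) lies among the HG libraries.

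The regulators differed widely in level. *Rbm24* was the most abundant in CON with 78.7 ± 3.50 FPKM (SD, n = 5), followed by *Ptbp1*, *Srpk3*, *Celf1*, *Rbfox2*, *Rbm20*, *Mbnl2*, *Mbnl1* and *Celf2*, and *Rbfox1* was last with 0.0378 ± 0.0141 FPKM. *Ptbp1* and *Srpk3*, the second and the third, did not differ beyond their spread in CON (54.1 ± 1.95 and 49.9 ± 4.39 FPKM), where *Ptbp1* was the higher of the pair in 4 of 5 libraries. All other neighbours in this order had ranges that did not overlap in CON. In HG the ranges of *Rbm24* and *Ptbp1* met, and so did those of *Rbm20* and *Mbnl2*, although the first of each pair was the higher in all 5 HG libraries.

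*Ptbp1* encodes the polypyrimidine tract binding protein, a repressor of exons that is abundant in dividing and undifferentiated cells. It had the largest difference of the 9 regulators. Its promoter is shown because this member changed most, beside that of its relative *Ptbp2*, which rose with it. The windows of 300 bases lie around the transcription start in RefSeq's GRCr8 assembly, mostly before it, on the strand of the gene, at chr7:10502908-10503207 (minus strand) for *Ptbp1* and chr2:210558228-210558527 (minus strand) for *Ptbp2*. Capitals mark the letters CCAAT.
Ptbp1: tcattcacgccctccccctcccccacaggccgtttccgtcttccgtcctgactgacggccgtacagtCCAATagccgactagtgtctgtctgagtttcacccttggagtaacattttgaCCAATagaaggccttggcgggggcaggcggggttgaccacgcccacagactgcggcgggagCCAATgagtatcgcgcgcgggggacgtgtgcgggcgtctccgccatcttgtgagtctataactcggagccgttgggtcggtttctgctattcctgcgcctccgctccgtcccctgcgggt
Ptbp2: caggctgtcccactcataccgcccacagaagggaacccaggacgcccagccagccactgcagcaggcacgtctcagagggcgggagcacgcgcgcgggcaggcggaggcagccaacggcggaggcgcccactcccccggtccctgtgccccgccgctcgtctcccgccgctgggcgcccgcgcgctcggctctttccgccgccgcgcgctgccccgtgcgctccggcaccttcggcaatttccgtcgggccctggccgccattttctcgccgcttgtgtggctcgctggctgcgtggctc
The *Ptbp1* window holds CCAAT 3 times, starting 183, 131 and 70 bases before the start, and the *Ptbp2* window does not hold it on either strand. CCAAT, read on both strands, occurs in 37.5% of the 33469 RefSeq windows of this length. Windows were matched for 7 of the 10 regulators, of which *Ptbp1* and *Mbnl2* hold CCAAT.

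The *Ptbp1* level was 54.5, 51.5, 56.9, 54.2 and 53.4 FPKM in the 5 CON libraries. It was 75.9, 76.7, 71.2, 70.1 and 63.5 FPKM in the 5 HG libraries. Every HG library was above every CON library, with HG 5 the closest. The CON mean was 54.1 ± 1.95 FPKM and the HG mean 71.5 ± 5.31 FPKM (SD, n = 5 each), 32.2% higher, with a log2 fold change of 0.40 (SE 0.0508, 95% confidence interval 0.29 to 0.51, limma adjusted p = 9.22e-05). The call held in all 22 alternatives, between 0.31 and 0.44 on the log2 scale.

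*Celf1*, also called CUGBP1, encodes the member of the CELF family that favours fetal splice forms in the heart and also speeds the decay of bound mRNAs. Its level was 33.8, 35.8, 34.7, 36.0 and 35.6 FPKM in CON. In HG it was 41.4, 39.5, 38.3, 39.8 and 44.3 FPKM. The groups did not overlap, and HG 5 was the highest. The log2 fold change was 0.21 (SE 0.0423, 95% confidence interval 0.11 to 0.30, limma adjusted p = 0.00225). It was 0.12 with median-of-ratios factors, where the call held (adjusted p = 0.0432).

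*Rbfox2* encodes the RBFOX protein that is made in many tissues . Its level was 31.2, 31.4, 30.8, 30.2 and 32.5 FPKM in CON. In HG it was 35.5, 34.5, 34.6, 34.6 and 38.0 FPKM. The groups did not overlap, and HG 5 stood above the other HG libraries. The log2 fold change was 0.18 (SE 0.0378, 95% confidence interval 0.10 to 0.26, limma adjusted p = 0.00261). With median-of-ratios factors the difference was 0.09 and no longer called (adjusted p = 0.0716). Among all genes, 19.3% had every HG library above every CON library, as *Ptbp1*, *Celf1* and *Rbfox2* did, and 27.4% had groups that did not overlap in either direction.

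*Rbm20* encodes the heart and muscle repressor of exons of titin and of calcium-handling genes, in which mutations cause dilated cardiomyopathy. Its level was 23.1, 23.7, 22.8, 25.7 and 21.2 FPKM in CON. In HG it was 21.1, 18.1, 20.7, 20.3 and 21.7 FPKM. The groups overlapped, since CON 5 lay below HG 5, and CON 4 was the highest of all libraries. The means were 23.3 ± 1.61 and 20.4 ± 1.35 FPKM (SD, n = 5), a log2 fold change of -0.19 (SE 0.0588, 95% confidence interval -0.32 to -0.06, limma adjusted p = 0.0212). Without CON 4 it was -0.16 and not called (adjusted p = 0.0520), and with median-of-ratios factors it was -0.28 and called (adjusted p = 0.00258).

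*Rbm24*, which promotes the inclusion of muscle exons and is needed for sarcomere assembly, had overlapping groups of 74.7 to 82.6 FPKM in CON and 76.7 to 87.8 FPKM in HG. Its log2 fold change was 0.04, with a 95% confidence interval of -0.05 to 0.14 (limma adjusted p = 0.466). *Celf2*, the relative of *Celf1* with broad expression in brain and muscle, was at 4.35 to 4.70 FPKM in CON and 4.37 to 5.46 FPKM in HG, a log2 fold change of 0.08 (95% confidence interval -0.06 to 0.22, adjusted p = 0.360). The direction of both turned with median-of-ratios factors, to -0.046 and -0.0080.

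MBNL1 and MBNL2 are the muscleblind proteins that favour adult splice forms, and their capture by repeat RNA underlies myotonic dystrophy. *Mbnl1* was at 7.93 to 8.54 FPKM in CON and 8.22 to 9.15 FPKM in HG, a log2 fold change of 0.05 (95% confidence interval -0.06 to 0.15, limma adjusted p = 0.480), which turned to -0.044 with median-of-ratios factors. *Mbnl2* was at 15.9 to 17.7 FPKM in CON and 16.9 to 18.3 FPKM in HG, a log2 fold change of 0.09 (adjusted p = 0.112) whose 95% confidence interval just reached below 0. When the 12 hemoglobin genes were left out before scaling, *Mbnl2* was called at 0.12 on the log2 scale (adjusted p = 0.0453).

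*Srpk3* encodes the SR protein kinase of striated muscle and is a known target of MEF2, a transcription factor of muscle genes. Its promoter window is shown because of the 7 matched regulators only *Srpk3* had a MEF2 site in its window, marked by capitals (chrX:156661720-156662019, plus strand, GRCr8, RefSeq).
Srpk3: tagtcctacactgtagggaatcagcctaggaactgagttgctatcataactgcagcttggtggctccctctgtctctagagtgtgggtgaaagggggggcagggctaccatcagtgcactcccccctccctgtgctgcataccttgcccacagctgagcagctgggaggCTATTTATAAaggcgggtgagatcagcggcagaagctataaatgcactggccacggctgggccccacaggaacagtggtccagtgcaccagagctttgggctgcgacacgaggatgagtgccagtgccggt
The site starts 81 bases before the transcription start, and a MEF2 site on either strand occurs in 3.29% of the RefSeq windows. The letters TATAAA, present in 14.2% of windows on either strand, lie at 78, 76 and 45 bases before the start, the first and the second of them overlapping the MEF2 site. The *Srpk3* level was 49.2, 47.7, 44.6, 51.6 and 56.3 FPKM in CON. In HG it was 46.2, 45.2, 46.5, 44.6 and 54.4 FPKM. The groups overlapped throughout, and the highest library of each was number 5. The log2 fold change was -0.07 (95% confidence interval -0.22 to 0.07, limma adjusted p = 0.409), and -0.16 with median-of-ratios factors (adjusted p = 0.0608).

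*Rbfox1*, the RBFOX gene of adult heart, muscle and neurons, was barely detected, with 5 to 29 reads per library. It was at 0.0497, 0.0528, 0.0364, 0.0318 and 0.0182 FPKM in CON and at 0.0538, 0.0699, 0.0370, 0.0473 and 0.112 FPKM in HG. The groups overlapped, and HG 5 held the most reads. In a fit of all 18025 genes without the filter its log2 fold change was 0.24 and not called (limma adjusted p = 0.206). The added 0.1 makes fold changes smaller at so low a level.

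HG 5 had the highest level of the HG group for 9 of the 10 regulators and the lowest for *Ptbp1*. After median-of-ratios factors it was the highest for 6 of 10. The same library had the largest of these factors (1.06), the lowest share of FPKM on hemoglobin genes (1.86%) and the lowest summed level of cardiomyocyte markers (16023 FPKM). Without HG 5 the calls were the same, with log2 fold changes of 0.44 for *Ptbp1*, 0.17 for *Celf1*, 0.15 for *Rbfox2* and -0.21 for *Rbm20*. Of the regulators that were not called, *Rbm24* was then at 0.016, *Celf2* at 0.033, *Mbnl1* at 0.021 and *Srpk3* at -0.125, and without CON 5 *Srpk3* was at -0.030.

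**Figure D2:**
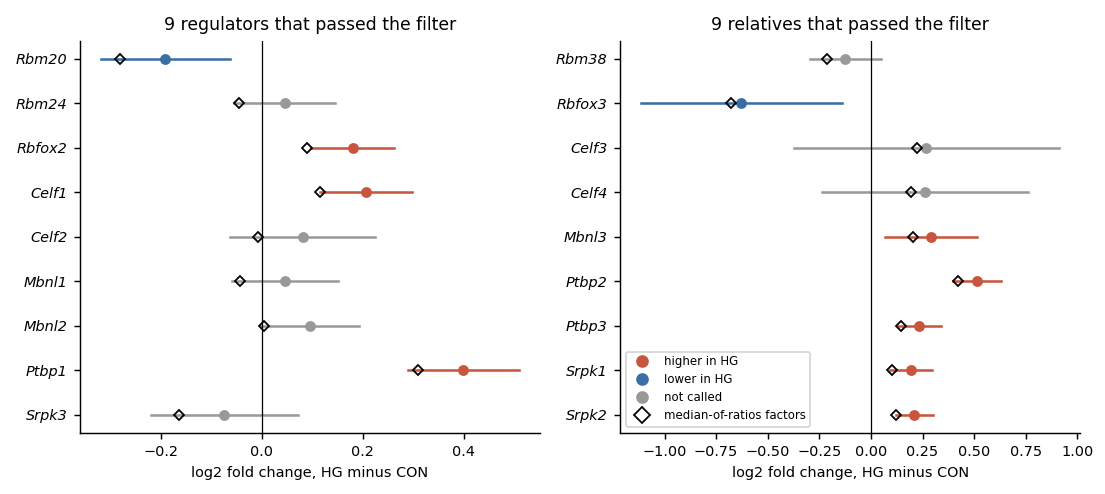
Log2 fold change, HG minus CON, with its 95% confidence interval for the 9 regulators (left) and 9 relatives (right) that passed the filter, on separate axes. Filled circles are red where called higher, blue where called lower and grey where not called, and open diamonds are the values with median-of-ratios factors. *Ptbp1* (0.40) and *Ptbp2* (0.51) lie farthest to the right, and the diamonds of *Rbm24*, *Celf2* and *Mbnl1* lie on the other side of 0.

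The relatives of these regulators comprise 11 genes, of which 9 were tested, 5 were higher and 1 was lower. Among all genes 28.4% were higher and 11.8% lower. The median log2 fold change of the relatives was 0.23, beside 0.09 of all genes. With median-of-ratios factors 3 relatives were higher and 1 was lower, beside 15.6% and 17.5% of all genes. The median was then 0.14, beside 0.01 of all genes. Within the PTB family the increase was shared. *Ptbp2*, the neuronal PTB protein that follows PTBP1 in development, was at 15.0 to 17.5 FPKM in CON and 21.7 to 24.5 FPKM in HG, a log2 fold change of 0.51 (SE 0.0529, limma adjusted p = 2.20e-05). *Ptbp3*, the PTB protein of blood cells and other tissues, was at 11.9 to 13.4 FPKM in CON and 14.5 to 15.9 FPKM in HG, a log2 fold change of 0.23 (adjusted p = 0.00209). The calls of all 3 PTB genes held in all 22 alternatives.

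The broadly expressed SR protein kinases also rose. *Srpk1* had a log2 fold change of 0.19 (limma adjusted p = 0.00654) and *Srpk2* of 0.21 (adjusted p = 0.00167). Every HG library was above every CON library for each of these genes, as for 19.3% of all genes. With median-of-ratios factors *Srpk1* was at 0.10 and not called (adjusted p = 0.0851), and *Srpk2* was at 0.12 and called (adjusted p = 0.0448).

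*Mbnl3*, the muscleblind gene of fetal and regenerating tissue, was low, with 1.10 to 1.48 FPKM in CON and 1.48 to 1.75 FPKM in HG, a log2 fold change of 0.29 (adjusted p = 0.0404) whose call was lost in 11 of 22 alternatives. *Rbfox3*, the neuronal RBFOX gene known as NeuN, had 4 to 20 reads per library and a log2 fold change of -0.63 (adjusted p = 0.0408), lost in 10 of 21 alternatives. This value depends on the added 0.1, being -0.13 with a pseudocount of 1, -1.07 with 0.01 and -1.11 with voom on recovered reads. *Rbm38*, a close relative of *Rbm24* and a target of p53, was at 83.5 to 110.6 FPKM in CON and 79.4 to 99.97 FPKM in HG, a log2 fold change of -0.12 that was not called (adjusted p = 0.238). The neuronal genes *Celf3* (0.27, adjusted p = 0.502) and *Celf4* (0.26, adjusted p = 0.397) were not called and had only 1 to 16 and 9 to 31 reads per library. *Celf5* and *Celf6* fell under the filter with at most 9 and 3 reads in a library.

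Whether the balance of regulators that act on the same exons, or of the forms of one family, differed between the groups was examined as 6 ratios within each library, on FPKM + 0.1. Scaling a library hardly moves these ratios, except that of *Rbfox1* to *Rbfox2*. The ratio of *Rbm20* to *Ptbp1*, which are known to act on shared exons of titin, was 0.425, 0.461, 0.401, 0.475 and 0.398 in CON. It was 0.278, 0.237, 0.292, 0.291 and 0.342 in HG. The groups did not overlap, and the geometric mean fell from 0.431 to 0.286, a change of -33.6% (two-sided exact permutation test, p = 0.00794, the smallest that 5 libraries against 5 allow, adjusted p = 0.0238 over the 6 ratios). This ratio is made of the called values above and is not a separate observation of either gene.

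The ratio of *Celf1* to *Celf2* was 7.44 to 7.94 in CON and 7.97 to 8.91 in HG, so that the groups did not overlap, with geometric means of 7.68 and 8.37 (two-sided exact permutation test, p = 0.00794, adjusted p = 0.0238). The ratio of the muscle kinase *Srpk3* to the general kinase *Srpk1* was 2.20 to 2.76 in CON and 1.97 to 2.21 in HG, with geometric means of 2.50 and 2.07 (exact permutation p = 0.0159, adjusted p = 0.0317). Here HG 5 reached just above the lowest CON library. The ratio of *Rbm24* to *Rbm20* was 3.15 to 3.88 in CON and 3.69 to 4.34 in HG. Its geometric means were 3.37 and 3.97 (exact permutation p = 0.0238, adjusted p = 0.0357), and CON 5 lay among the HG libraries. The ratios of this paragraph each contain a gene called above (*Celf1*, *Srpk1* or *Rbm20*) and are not separate observations of that gene.

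The ratio of *Mbnl1* to *Mbnl2* was 0.486 to 0.526 in CON and 0.463 to 0.507 in HG, which did not pass the test (exact permutation p = 0.198, adjusted p = 0.238). The ratio of *Rbfox1* to *Rbfox2* was 0.00362 to 0.00485 in CON and 0.00395 to 0.00556 in HG (exact permutation p = 0.627) and is set mostly by the added 0.1, since *Rbfox1* was at 0.0182 to 0.112 FPKM. Its log2 difference was 0.06, and it was -0.14 with a pseudocount of 1 (exact permutation p = 0.00794) and 0.43 with a pseudocount of 0.01 (exact permutation p = 0.222), so that no direction is given.

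**Figure D3:**
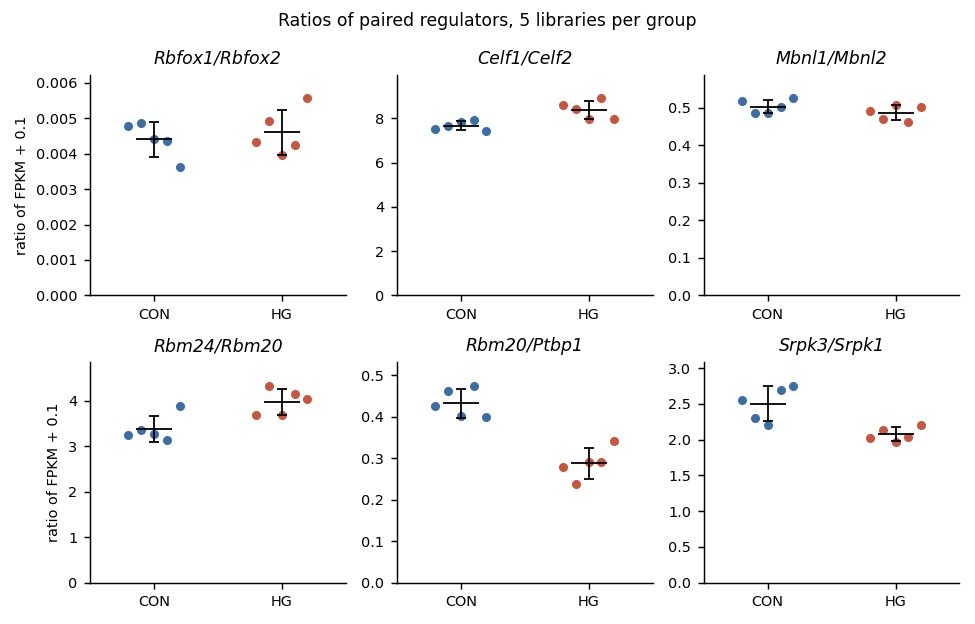
Ratio of FPKM + 0.1 of paired regulators in each library (y axis, starting at 0 and scaled per ratio), with CON in blue and HG in red. Lines are arithmetic means and bars are SD (n = 5 libraries). The groups are apart for *Rbm20*/*Ptbp1* and *Celf1*/*Celf2*, whereas those of *Mbnl1*/*Mbnl2* and *Rbfox1*/*Rbfox2* overlap.

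The wider splicing machinery was on the higher side. Of 39 other splicing regulators tested (SR proteins, hnRNP proteins, CLK kinases and others), 21 were higher and 0 lower. Among all genes 28.4% were higher and 11.8% lower. The median log2 fold change of the other regulators was 0.18, beside 0.09 of all genes. *Srsf5*, an SR protein, had a log2 fold change of 0.44, *Hnrnpa1*, an hnRNP protein that blocks exons, of 0.42, and *Tia1*, a U-rich sequence binder that recruits the U1 particle, of 0.37. Of 20 core spliceosome genes, 14 were higher and 0 lower, also with a median of 0.18. In both lists 0 genes were lower at an unadjusted limma p under 0.05 or with voom on reads recovered from the FPKM. *Snrpa*, a protein of the U1 particle, had a log2 fold change of 0.53, and the Sm proteins *Snrpg* and *Snrpd1*, which form the ring of the small nuclear particles, of 0.40 and 0.37. With median-of-ratios factors the other regulators were 12 higher and 2 lower with a median of 0.09. The core spliceosome was then 6 higher and 0 lower with a median of 0.09. Of all genes 15.6% were higher and 17.5% lower with this scaling, with a median of 0.01.

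Of the deposited GO annotation, "regulation of alternative mRNA splicing, via spliceosome" covered 8 of the 10 regulators. This term, chosen after the values were seen, had 55 genes tested, of which 29 were higher and 3 lower. Their median log2 fold change was 0.18. Among all genes 28.4% were higher and 11.8% lower, with a median of 0.09.

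**Figure D4:**
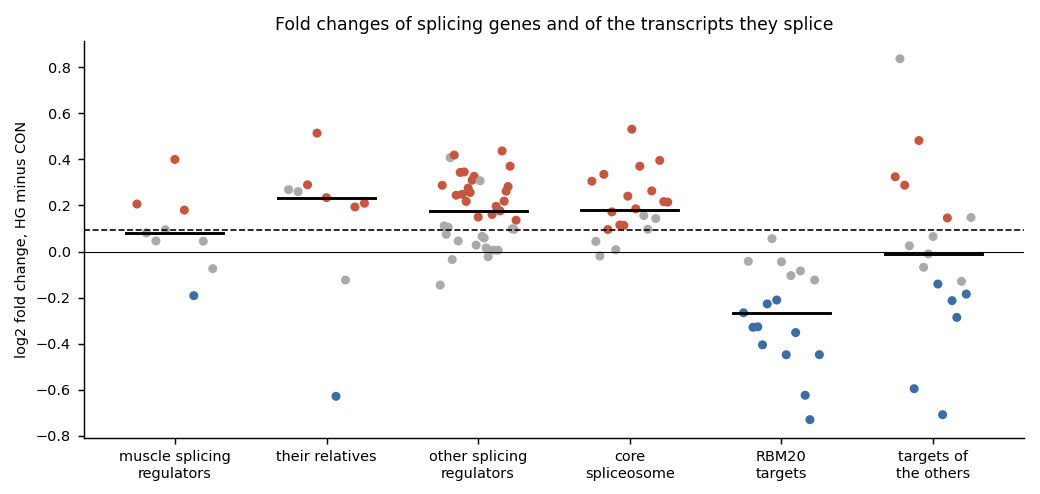
Log2 fold change, HG minus CON, of every tested gene of 6 lists, with red points called higher, blue points called lower and grey points not called. Solid bars are the medians of the lists and the dashed line is the median of all genes tested (0.09). The regulators have their median (0.08) near the dashed line, the spliceosome and other regulators lie above it (0.18 each), and RBM20 targets lie below it (-0.27).

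Transcripts whose exons RBM20 is known to control were mostly lower in HG. Of 17 such genes tested, 0 were higher and 11 were lower, beside 28.4% and 11.8% of all genes. The median log2 fold change was -0.27, beside 0.09 of all genes. A list of 10 cardiomyocyte markers, which shares *Ryr2* and *Ttn* with these genes, was lower as well (8 called lower, median -0.38). Lower levels were thus not particular to RBM20 targets, and a link to the level of *Rbm20* was not tested. Of the 11, 10 had no overlap between the groups, beside 8.12% of all genes, and 0 of the 17 were higher at an unadjusted limma p under 0.05 or with voom. With median-of-ratios factors 15 were lower, beside 17.5% of all genes, and the median was -0.36, beside 0.01 of all genes. *Ryr2*, the calcium release channel of the sarcoplasmic reticulum, was at 43.9 to 58.8 FPKM in CON and 30.4 to 36.3 FPKM in HG (-0.62, limma adjusted p = 7.94e-05). *Ttn*, encoding titin and named after its values were seen, had a difference of -0.45 on the log2 scale (adjusted p = 0.00122). *Camk2d*, the calcium and calmodulin-dependent kinase studied in these hearts and likewise named afterwards, had a log2 fold change of -0.04 with a 95% confidence interval of -0.14 to 0.05 (adjusted p = 0.478).

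Transcripts spliced by the other regulators moved in both directions. Of 17 tested, 4 were higher and 6 were lower, beside 28.4% and 11.8% of all genes. Their median log2 fold change was -0.01, beside 0.09 of all genes. With median-of-ratios factors 2 were higher and 7 lower, beside 15.6% and 17.5% of all genes. The median was then -0.10, beside 0.01 of all genes. *Fn1*, encoding fibronectin, had a log2 fold change of 0.48, *Actn1*, the non-muscle alpha-actinin, of 0.32, and *Bin1*, which shapes the T-tubules, of 0.29. The call of *Bin1* was lost with median-of-ratios factors (0.20, adjusted p = 0.0822). *Nrap*, a scaffold of myofibril assembly, had a log2 fold change of -0.71, *Dtna*, a dystrophin partner, of -0.59, and *Tnnt2*, cardiac troponin T, of -0.29. *Tnnt2* was at 3874 to 4058 FPKM in CON and 3093 to 3491 FPKM in HG, and its call was lost with quantile normalization (-0.08, adjusted p = 0.574).

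**Figure D5:**
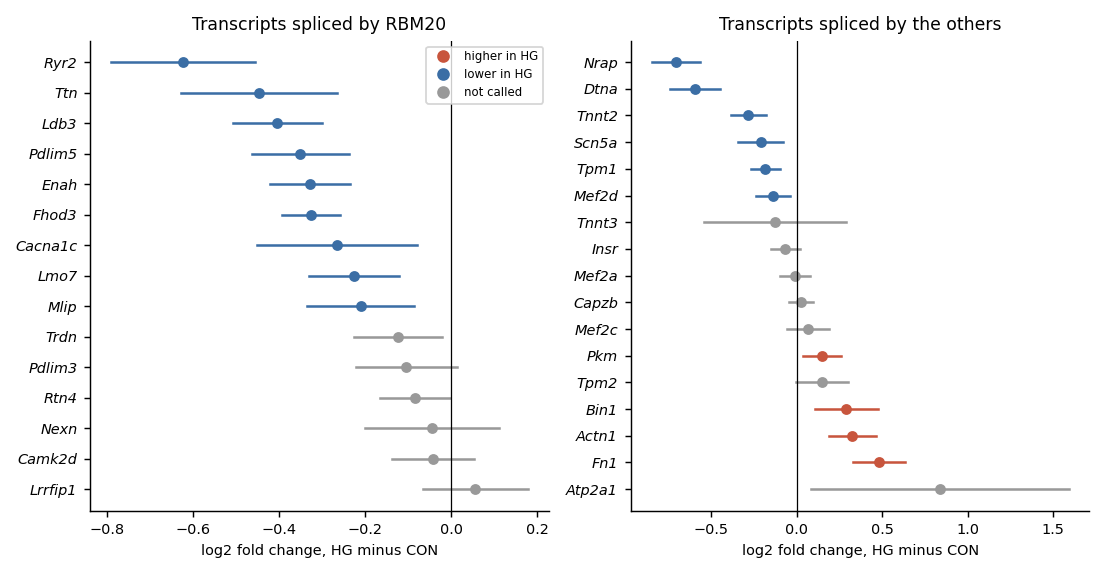
Log2 fold change, HG minus CON, with 95% confidence interval for 15 of the 17 transcripts spliced by RBM20 (left) and 17 spliced by the other regulators (right), on separate axes and ordered by value. Blue marks genes called lower, red genes called higher and grey genes not called. *Ryr2* (-0.62) and *Nrap* (-0.71) lie farthest to the left of their panels, and 1 RBM20 target is above 0.

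Some lists of cell type markers differed between the groups, and the summed levels of others overlapped. Of 10 cardiomyocyte markers, 8 were lower, the list had a median log2 fold change of -0.38, and their summed level was 20026 to 21264 FPKM in CON and 16023 to 18634 FPKM in HG. This list shares *Ryr2* and *Ttn* with the RBM20 targets and *Tnnt2* with the targets of the other regulators. Of 6 smooth muscle and pericyte markers, 3 were higher and 1 lower (summed 762 to 885 FPKM in CON and 976 to 1228 FPKM in HG). Of 6 macrophage markers, 3 were higher (28.3 to 35.1 and 33.0 to 43.4 FPKM). Of 6 fibroblast markers, 2 were higher and 2 lower (1500 to 1726 and 1392 to 1580 FPKM), and of 6 endothelial markers 1 was higher (232 to 251 and 236 to 259 FPKM).

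Of 10 red cell markers, 2 were higher and 7 lower (10450 to 19744 FPKM in CON and 8221 to 11577 FPKM in HG). Of 6 neuronal markers, 2 fell under the filter, 1 was higher and 2 were lower (4.37 to 5.50 and 3.85 to 4.61 FPKM). Of 8 skeletal muscle markers, 6 were listed and 3 of these fell under the filter, among them *Myod1*. Of the 3 tested, *Myog* was higher (log2 fold change 0.76), *Ckm* was lower (-0.97) and *Myh3* was not called (0.53). *Myog* was low, with means of 0.278 FPKM in CON and 0.540 FPKM in HG. *Ckm*, which the heart also expresses, held most of the sum of the list (957 to 1124 and 479 to 581 FPKM). All 4 liver markers were lower, with 73.0 FPKM in CON 3 and at most 7.22 FPKM in any other library. No listed marker was at 0 in every library. The part of these markers in the differences of the regulators was not tested, and in such bulk samples fewer cells of a type and less RNA per cell cannot be told apart.

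The genes most like a member over the 10 libraries were taken for *Ptbp1* and *Celf1*, which had the largest differences, as a description that includes the difference between the groups. For *Ptbp1* they were *Marcksl1* (Pearson r of log2(FPKM + 0.1) = 0.993), *Kctd15* (0.986), *Chchd6* (0.984), *Rnf220* (0.983) and *Nectin2* (0.980). For *Celf1* they were *Cnot1* (0.989), *Fam168a* (0.985), *Bcl2l2* (0.984), *Mertk* (0.982) and *Ccdc112* (0.979). These points share their libraries and scaling.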

How the data were processed

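Total RNA of fetal hearts was made into stranded mRNA libraries (TruSeq Stranded mRNA LT). The authors deposited FPKM per gene, for which reads were divided by gene length and library size. The submitters' processing notes name fastp, HISAT2, HTSeq, R 3.2.0 and the build mRatBN7.2, without versions of the first 3 tools. All per-sample columns were used, and GO terms were taken from the same table.

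The steps between FPKM values gave whole reads for 100% of genes (tolerance 0.001 reads). The count model of the study's methods does not take FPKM, so log2(FPKM + 0.1) was compared with limma 3.58.1 (trend, no covariate) in R 4.3.3 for genes whose mean reached 0.1 FPKM, after tests on simulated data. Each regulator had at least 1403 reads in every library except *Rbfox1*, which had 5 to 29. How much of the spread between libraries is counting error was not tested. For ratios, exact permutation tests were two-sided (252 splits). Tables and figures were made with Python 3.11.15, numpy 2.4.6, pandas 2.3.3 and matplotlib 3.10.9.

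All members and relatives were named, and of each other list the 3 genes called higher and the 3 called lower with the largest change, of which 2 are not reported here. For the 2 members with the largest change, the 5 genes of highest correlation were named. The members, lists and tests were chosen with earlier results of these data known.

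Other settings were median-of-ratios factors or quantile normalization, a pseudocount of 1 or 0.01, a filter at 1 FPKM or none, array weights, a fit without trend, a replicate block, Y chromosome genes as a covariate, the table without hemoglobin genes and each library left out. After seeing the data, voom on recovered reads was added. Promoter sequences are from RefSeq (GRCr8). Windows were not matched for *Rbm20*, *Rbfox2* and *Celf2*.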

Additional observations from a re-analysis of the deposited data

Results flagged for a closer look

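The level of *Rbfox2* in HG 5 was 38.0 FPKM, set apart from the other 4 HG libraries, of which the nearest was at 35.5 FPKM. *Srpk3* in HG 5 was at 54.4 FPKM, and the nearest HG library was at 46.5 FPKM. The ratio of *Rbm24* to *Rbm20* in CON 5 was 3.88, and the nearest CON library was at 3.36. In each case the gap to the nearest library was above Dixon's 95% critical value for 5 libraries (0.71 of the range of the group). Of 32 groups of 5 checked, 3 passed this limit, and chance passes about 1 in 20.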

How the results depend on the processing

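The calls of *Ptbp1*, *Celf1*, *Ptbp2*, *Ptbp3* and *Srpk2* held in all 22 alternatives, and the counts of regulators called higher ranged from 2 to 4. With median-of-ratios factors the log2 fold changes of *Rbm24* (-0.046), *Celf2* (-0.0080) and *Mbnl1* (-0.044) turned and *Rbfox2* lost its call (0.089), while 3 relatives, 12 other regulators, 6 core spliceosome genes, 2 targets of the other regulators and 2271 of all genes were higher, and 2 other regulators were lower. With quantile normalization *Celf2* (-0.020) and *Mbnl1* (-0.043) turned, and 3 relatives and 2615 of all genes were higher. With hemoglobin genes left out *Mbnl2* was called (0.12). The cause of these shifts was not tested. With each library left out in turn, *Rbm20* ranged from -0.22 to -0.15, the regulators called lower from 0 to 1, the relatives called lower from 0 to 1, the other regulators called lower from 0 to 1 and the log2 ratio of *Rbfox1* to *Rbfox2* from -0.011 to 0.11. *Rbm20* lost its call without CON 4 (-0.16), and 1 other regulator was lower without HG 5. The relatives called lower were 0 with a pseudocount of 1, with Y chromosome genes as a covariate and with a filter at a mean of 1 FPKM, which leaves out *Rbfox3*. With a pseudocount of 1 the log2 ratio of *Rbfox1* to *Rbfox2* was -0.14.

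Replicate numbers are shared by the groups, but the deviations of libraries with the same number correlated between -0.13 and 0.11, so the numbers were not taken as pairs. With the replicate block *Rbm20* was at -0.19 and not called (limma adjusted p = 0.0506), so that 0 regulators and 0 relatives were lower. The log2 ratios *Celf1*/*Celf2* (0.13), *Rbm24*/*Rbm20* (0.24), *Rbm20*/*Ptbp1* (-0.59) and *Srpk3*/*Srpk1* (-0.27) did not pass with the block, where the smallest exact permutation p that 5 pairs allow is 0.0625. The depth limits *Rbfox1*, *Rbfox3*, *Celf3*, *Celf5* and *Celf6*, which have fewer than 30 reads in every library, and *Celf4*, which has 9 to 31.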

Other observations

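Among GO terms of splicing that were looked at after the values were seen, "mRNA splicing, via spliceosome" had 148 genes tested, of which 88 were higher in HG and 4 lower, with a median log2 fold change of 0.18. "Alternative mRNA splicing, via spliceosome" had 24 genes tested, with 16 higher and a median of 0.22. "Spliceosomal complex" had 73 genes tested, with 43 higher and 3 lower and a median of 0.17. Of all genes tested, 28.4% were higher and 11.8% lower, and their median was 0.09. These terms share genes with each other and with the lists of the report.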
